A study of Mus musculus with 4 samples.

Results

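A set of 45 genes that mark the S and G2/M phases of the cell cycle was followed through 4 single-cell RNA sequencing libraries of mouse hindlimb. The genes were matched by symbol among the 27998 genes of the deposited matrices, and all 45 were present. They comprised 17 S genes, 25 G2/M genes, and 3 genes (Hmgb2, Stmn1 and H2afz) that are also expressed outside the cycle and were kept apart from both lists. The mice were homozygous for slie, a deletion in Ddr2 that arose spontaneously and removes a receptor for collagen, or were littermate controls. Whether those controls carried 1 slie allele was not stated in the sources. All of them had isoflurane anaesthesia, buprenorphine, a burn on the back over 30% of body surface and transection of the left Achilles tendon. At day 7 the injured left limb and the uninjured right limb of the same burned mice were digested to single cells, and tissue of 2 mice was pooled into 1 library for each genotype and limb. The uninjured limb is therefore a limb of a burned animal. With 1 library per group there was no test between groups, and every interval below is a 95% interval that covers counting error only. The sources state neither age nor strain.

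A dividing cell copies its DNA in S phase and separates the copies in mitosis after G2. S phase genes encode the MCM helicase that opens the origins, the enzymes that make nucleotides, and the sliding clamp and chromatin factors that follow the replication fork. G2/M genes encode cyclins A and B with their kinase Cdk1, the kinetochore, the spindle motors and the ubiquitin ligase parts that end mitosis. Most cells of an adult limb rest outside the cycle, and fibroblasts, pericytes and endothelial cells enter it as a wound heals.

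The deposited libraries held between 289 and 1075 barcodes, and after the filter 751 cells remained in control injured, 246 in slie injured, 60 in control uninjured and 184 in slie uninjured. These cells held 4032783, 1010828, 242888 and 1097002 UMIs, with medians of 1641, 1218, 1337 and 4841 UMIs per cell. The control uninjured library kept 60 of its 1075 barcodes. Cells with under 0.5% mitochondrial UMIs numbered 379, 152, 3 and 22, so most of them were in the injured libraries. The uninjured and injured control libraries shared 1 barcode, and no kept cell was shared. Ddr2 had 115 UMIs in control injured, 0 in slie injured, 3 in control uninjured and 2 in slie uninjured; at the depth of slie injured, the level of 3 UMIs was 2.97 CPM. CPM here is the UMIs of a gene or list per 1000000 UMIs of the summed cells.

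Cells were grouped into 17 clusters without use of the cell cycle genes. Clusters 0, 1 and 5 were called fibroblast-like, 6 and 13 pericyte-like, 4 and 15 endothelial-like, 9 and 16 keratinocyte-like, 3 and 11 macrophage-like and 2 and 10 neutrophil-like, each from detected markers of that type. Clusters 0, 1, 5, 10, 15 and 16 had no marker of their type among their 10 leading genes, and those of cluster 16 (11 cells) included the lipid synthesis genes Scd1, Elovl3 and Elovl6. Fibroblast-like cells were 299 in control injured (125, 115 and 59 in clusters 0, 1 and 5) and 107 in slie injured (60, 24 and 23), but 3 and 11 in the uninjured libraries. The 12 fibroblast markers summed to 56129 CPM in the fibroblast-like cells and to 11466 CPM in the pericyte-like cells, where the 12 pericyte or smooth muscle markers summed to 27233 CPM. In slie uninjured 66 of the 184 cells formed a cluster that was left unnamed, because its leading genes included 5 myofibre markers. Yet 12 fibroblast markers were detected in that cluster, so the fibroblast-like count of this library may leave out fibroblasts.

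The promoters of both lists were set beside each other, because S and G2/M genes are known to be driven through different elements. RefSeq windows of build GRCm38.p6, the mm10 assembly, from 250 bases before to 50 after the start of the gene were found for 22 of the 25 G2/M genes and 15 of the 17 S genes. The searched motifs were TTTGAA (the cell cycle homology region, or CHR), CCAAT, and the E2F forms TTTCCCGC, TTTCGCGC, TTTGCCGC and TTTGGCGC, on both strands. The examples are the genes of each list with the most UMIs that have a window, and Mcm6, added after the values were seen as the S gene with an E2F match and the most UMIs. They lie at chr5:33652525-33652824, minus strand (Slbp), chr5:30073576-30073875, minus strand (Tyms), chr1:128359656-128359955, minus strand (Mcm6), chr5:30666636-30666935, plus strand (Cenpa) and chr11:99024140-99024439, minus strand (Top2a), and each is written 5′ to 3′ on the strand of its gene with matches in capitals.
Slbp: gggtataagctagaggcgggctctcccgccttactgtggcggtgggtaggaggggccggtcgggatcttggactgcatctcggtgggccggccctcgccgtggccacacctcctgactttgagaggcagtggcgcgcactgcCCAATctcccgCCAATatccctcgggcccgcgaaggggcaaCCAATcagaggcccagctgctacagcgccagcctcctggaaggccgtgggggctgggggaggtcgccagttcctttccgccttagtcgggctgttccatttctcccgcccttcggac
Tyms: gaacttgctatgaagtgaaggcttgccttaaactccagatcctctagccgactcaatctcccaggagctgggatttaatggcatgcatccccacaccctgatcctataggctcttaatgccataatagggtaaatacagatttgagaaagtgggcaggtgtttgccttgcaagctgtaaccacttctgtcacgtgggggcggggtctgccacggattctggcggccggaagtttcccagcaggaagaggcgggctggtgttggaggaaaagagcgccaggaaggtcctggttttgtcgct
Mcm6: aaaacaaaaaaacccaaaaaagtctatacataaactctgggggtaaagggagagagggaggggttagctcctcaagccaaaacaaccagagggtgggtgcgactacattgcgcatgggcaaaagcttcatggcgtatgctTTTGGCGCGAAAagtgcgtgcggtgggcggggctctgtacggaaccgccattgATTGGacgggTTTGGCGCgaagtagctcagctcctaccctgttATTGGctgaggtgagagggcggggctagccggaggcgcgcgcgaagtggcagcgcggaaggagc
Cenpa: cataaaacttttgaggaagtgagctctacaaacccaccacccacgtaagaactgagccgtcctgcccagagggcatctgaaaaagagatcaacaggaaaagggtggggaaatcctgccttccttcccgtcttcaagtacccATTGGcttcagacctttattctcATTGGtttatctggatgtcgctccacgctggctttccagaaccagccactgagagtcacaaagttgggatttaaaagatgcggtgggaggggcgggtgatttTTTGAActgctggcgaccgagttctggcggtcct
Top2a: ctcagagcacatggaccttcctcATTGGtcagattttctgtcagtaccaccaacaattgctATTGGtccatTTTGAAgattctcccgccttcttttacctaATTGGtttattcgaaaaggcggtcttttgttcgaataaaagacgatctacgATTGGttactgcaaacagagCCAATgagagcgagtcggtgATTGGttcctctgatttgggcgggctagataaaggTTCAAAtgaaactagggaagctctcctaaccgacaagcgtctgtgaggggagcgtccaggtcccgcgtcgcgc

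Slbp, which encodes the protein that binds the stem-loop of histone mRNA, had 3 CCAAT matches, and Tyms (thymidylate synthase) had no match in its window. Mcm6, a helicase subunit, had 3 E2F matches, of which 2 on opposite strands overlap, and 2 CCAAT matches. Cenpa, the centromeric histone, had 1 CHR and 2 CCAAT matches, and Top2a, the topoisomerase that untangles sister chromatids, had 2 CHR and 6 CCAAT matches. A CHR match was present for 16 of the 22 G2/M genes (72.7%) and 1 of the 15 S genes (Mcm2), against 20.2% of the 27025 genes in the table. CCAAT was present for 18 of 22 G2/M genes and 10 of 15 S genes, against 41.1% of genes. An E2F form was present for 7 of the 15 S genes (Mcm3, Mcm5, Mcm6, Mcm7, Uhrf1, Cdc6 and Cdca7) and 1 of the 22 G2/M genes (Cdk1), against 2.6% of genes. These are matches of letters in the reference genome and describe no binding in these cells.

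**Figure D1:**
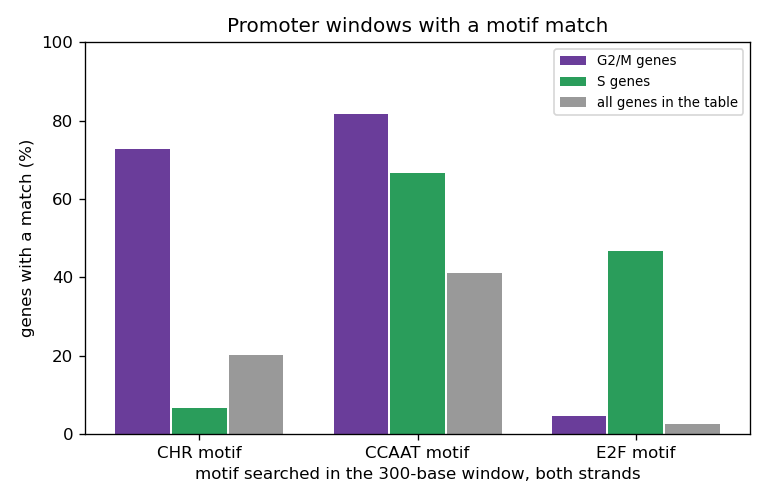
Percent of genes whose 300-base RefSeq window holds a CHR, CCAAT or E2F match on either strand, for 22 G2/M genes, 15 S genes and the 27025 genes of the table. CHR matches are most frequent among G2/M genes (72.7%) and E2F matches among S genes (46.7%).

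Both lists were higher in the injured than in the uninjured libraries, and the G2/M genes by more. The 25 G2/M genes summed to 977 CPM (947 to 1008) in control injured, 1077 CPM (1014 to 1143) in slie injured, 94.7 CPM (60 to 142) in control uninjured and 149 CPM (127 to 173) in slie uninjured. The 17 S genes summed to 362, 582, 189 and 228 CPM in the same order. For each S UMI there were 2.70 G2/M UMIs (2.54 to 2.87) in control injured and 1.85 (1.67 to 2.05) in slie injured. In the uninjured limbs the order was turned, with 0.50 (0.289 to 0.842) and 0.652 (0.532 to 0.797) G2/M UMIs per S UMI.

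In control mice the summed G2/M CPM was 10.3-fold higher in the injured limb (log2 ratio 3.37, interval 2.78 to 4.03) and the summed S CPM 1.91-fold (0.93, 0.51 to 1.39). Genes with at least 20 UMIs over both libraries were called measured, and those differing by 1.5-fold were counted. By that rule 20 of 25 G2/M genes were higher and 0 lower, against 27.5% of the 10959 genes measured as higher and 25% as lower. Of the S genes 7 of 17 were higher (Mcm4, Mcm6, Tyms, Rrm1, Rrm2, Gins2 and Ung), and 1 was lower: Cdca7, a factor of chromatin remodelling, at 14.1 CPM against 24.7. The control uninjured library had no UMI of 12 G2/M genes and of 4 S genes, so several folds are lower bounds, taken against 3 UMIs there (12.4 CPM). The median over the S genes was 0.41 and over all measured genes 0.00 on the log2 scale.

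In slie mice the summed G2/M CPM was 7.25-fold higher in the injured limb (log2 ratio 2.86, 2.62 to 3.11) and the summed S CPM 2.55-fold (1.35, 1.14 to 1.57). All 19 measured G2/M genes were higher, against 20.6% of 9221 genes as higher and 23.7% as lower, and so were 13 of 14 S genes. Mcm2, a helicase subunit, was the S gene that was not, with 8.90 CPM in the injured and 11.9 CPM in the uninjured limb. A single fibroblast-like cell of 51346 UMIs held 119 of the 163 G2/M UMIs of the slie uninjured library. Without the cell with the most G2/M UMIs in each library the log2 ratio was 4.39 (3.96 to 4.87), with 16 of 16 measured genes higher. In control mice it was 3.91, with 17 of 25 higher. No share of all genes was counted without these cells. With all cells the uninjured libraries held 23 (control) and 163 (slie) G2/M UMIs. Most G2/M genes thus reached 20 UMIs only through the injured limb, so the gene counts of both genotypes add little to the summed ratios. The limbs also differed in their cells. Fibroblast-like cells made up 299 of 751 and 107 of 246 injured cells but 3 of 60 and 11 of 184 uninjured cells. The count of 11 leaves out the 66 cells of the unnamed cluster, in which 12 fibroblast markers were detected. Those 66 cells held 12 G2/M and 57 S UMIs. The part of cell makeup in the ratios over all cells was not tested.

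**Figure D2:**
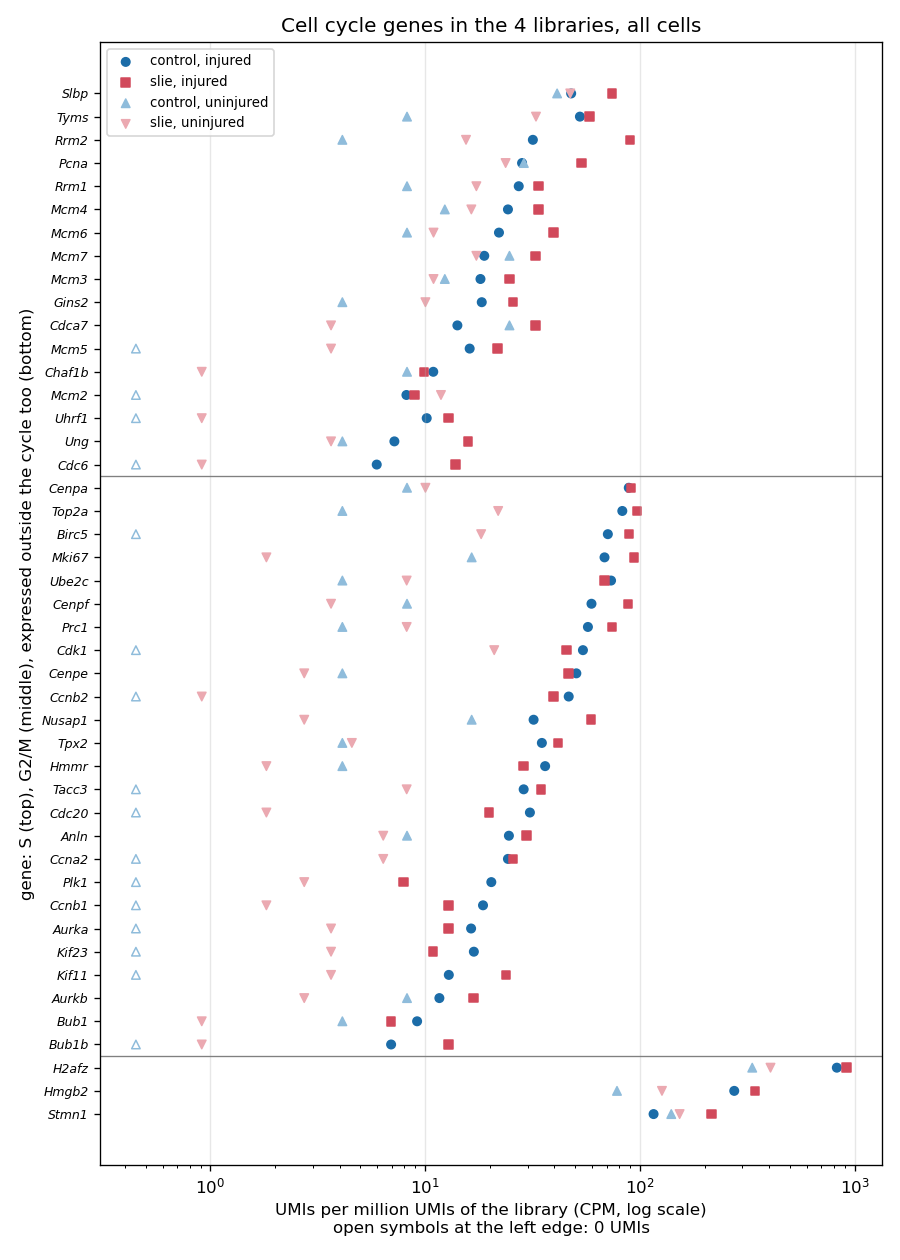
Each row is 1 gene and each symbol 1 library, at its CPM on a log axis, with open symbols for genes with 0 UMIs. The G2/M genes of the injured libraries lie to the right of slie uninjured in every row, and 12 of them have 0 UMIs in control uninjured. In control mice several S genes such as Slbp and Pcna have uninjured values, from few UMIs, close to the injured ones.

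By role, the genes that change chromosome structure for division were among the most abundant. Top2a had 82.8 CPM in control injured, 97.0 in slie injured, 4.12 in control uninjured and 21.9 in slie uninjured, and Mki67, the chromosome surface protein used as a marker of dividing cells, had 68.4, 93.98, 16.5 and 1.82 CPM. For both genes the injured libraries lay above both uninjured ones. The 24 Top2a UMIs of slie uninjured lay in 3 cells.

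Kinetochore genes showed the same order. Cenpa had 88.8, 91.0, 8.23 and 10.0 CPM in control injured, slie injured, control uninjured and slie uninjured. Cenpf had 59.5, 88.0, 8.23 and 3.65 CPM, and Cenpe, a kinetochore motor, 50.6, 46.5, 4.12 and 2.73 CPM. The injured libraries thus stood apart from the uninjured ones, and the 2 genotypes lay within 1.5-fold of each other in the injured limb for each of these 3 genes.

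Among mitotic cyclins and their kinase, Cdk1 had 54.3, 45.5, 0 and 21.0 CPM in the same order. Ccnb2 (cyclin B2) had 46.6, 39.6, 0 and 0.912 CPM, and Ccna2 (cyclin A2) 24.3, 25.7, 0 and 6.38 CPM. None of the 3 had a UMI in control uninjured, so that the injured level was at least 4.397-fold higher for Cdk1, 3.77-fold for Ccnb2 and 1.97-fold for Ccna2, taken against 3 UMIs in that library. The 21.0 CPM of Cdk1 in slie uninjured came from 23 UMIs in 2 cells, and the 6.38 CPM of Ccna2 from 7 UMIs in 1 cell.

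The checkpoint and kinase group was led by Birc5 (survivin, of the chromosomal passenger complex), with 70.9, 89.0, 0 and 18.2 CPM. Its 20 UMIs in slie uninjured lay in 1 cell. Plk1, a mitotic kinase, had 20.3, 7.91, 0 and 2.73 CPM, and Aurka, the spindle pole kinase, 16.4, 12.9, 0 and 3.65 CPM. Plk1 was the gene of this group that differed most between the genotypes in the injured limb. Ube2c, the ubiquitin-conjugating enzyme of the anaphase promoting complex, had 73.4, 68.3, 4.12 and 8.20 CPM, and its activator Cdc20 had 30.8, 19.8, 0 and 1.82 CPM.

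Spindle and cytokinesis genes included Prc1, which bundles the microtubules of the central spindle, at 57.3, 74.2, 4.12 and 8.20 CPM. Nusap1, a microtubule binding protein, had 32.0, 59.4, 16.5 and 2.73 CPM, and Tpx2, which activates Aurka on the spindle, 34.96, 41.6, 4.12 and 4.56 CPM. The other 5 genes of the group (Tacc3, Kif11, Kif23, Hmmr and Anln) also had more CPM in both injured libraries than in slie uninjured. Against control uninjured, Tacc3, Kif11 and Kif23 had 0 UMIs there, and the 10.9 CPM of Kif23 in slie injured is under the level of 3 UMIs in that library.

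S genes kept part of their level in the uninjured limb. Slbp had 47.9 CPM in control injured, 74.2 in slie injured, 41.2 in control uninjured and 47.4 in slie uninjured, and Pcna, the sliding clamp, 28.3, 53.4, 28.8 and 23.7 CPM. For Slbp and Pcna the control injured and control uninjured values were within 1.5-fold of each other, the latter from 10 and 7 UMIs. In slie mice both genes were over 1.5-fold higher in the injured limb. Tyms had 52.6, 58.4, 8.23 and 32.8 CPM, and Rrm2, the regulated subunit of ribonucleotide reductase, 31.7, 90.0, 4.12 and 15.5 CPM. Rrm1, its large subunit, had 27.3, 33.6, 8.23 and 17.3 CPM. Of the 91 Rrm2 UMIs of slie injured, 40 lay in 1 cell and 25 in another. Of the helicase genes, Mcm4 had 24.3, 33.6, 12.4 and 16.4 CPM, Mcm6 22.1, 39.6, 8.23 and 10.9 CPM, and Mcm7 18.8, 32.6, 24.7 and 17.3 CPM. Mcm7 thus had a higher value in control uninjured, from 6 UMIs, than in control injured.

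Among cell classes of the injured limbs, pericyte-like cells had the highest G2/M level. They reached 3056 CPM (2882 to 3238, 57 cells) in control and 3249 CPM (2922 to 3602, 21 cells) in slie, against 1386 CPM (1325 to 1449) and 926 CPM (830 to 1029) in fibroblast-like cells. Keratinocyte-like cells had 1094 CPM (39 cells) and 1800 CPM (26 cells), endothelial-like cells of control injured 543 CPM (26 cells) and macrophage-like cells of control injured 215 CPM (119 cells). Mature neutrophils do not divide, and neutrophil-like cells gave the background at 130 CPM (87 to 187, 147 cells) and 65.4 CPM (21.2 to 153, 42 cells). Of the 25 G2/M genes 22 were highest in pericyte-like cells among these classes in control injured, and 18 in slie injured. The share of all genes highest in pericyte-like cells was not counted, so these gene counts have no background beside them. A single pericyte-like cell held 218 of the 1147 G2/M UMIs of its class in control injured, with 23 G2/M genes found in it. In slie injured a single cell held 171 of 360, with 24 found, so the genes counted partly repeat the same few cells. Slie injured held under 20 endothelial-like and macrophage-like cells each, and those are not described.

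S levels were closer together between classes. In control injured they were 576 CPM in pericyte-like, 514 in fibroblast-like, 375 in endothelial-like, 239 in keratinocyte-like, 230 in macrophage-like and 188 CPM (136 to 254) in neutrophil-like cells. The intervals of keratinocyte-like (187 to 302) and macrophage-like cells (198 to 266) overlapped that of the neutrophil-like cells. Slbp alone gave 24 of the 42 S UMIs of these neutrophil-like cells, and Tyms, Rrm1 and Rrm2 had none there, so their S level is mainly that of Slbp. Pericyte-like cells of control injured had 5.31 G2/M UMIs per S UMI (4.59 to 6.17), and neutrophil-like cells 0.691 (0.415 to 1.14).

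**Figure D3:**
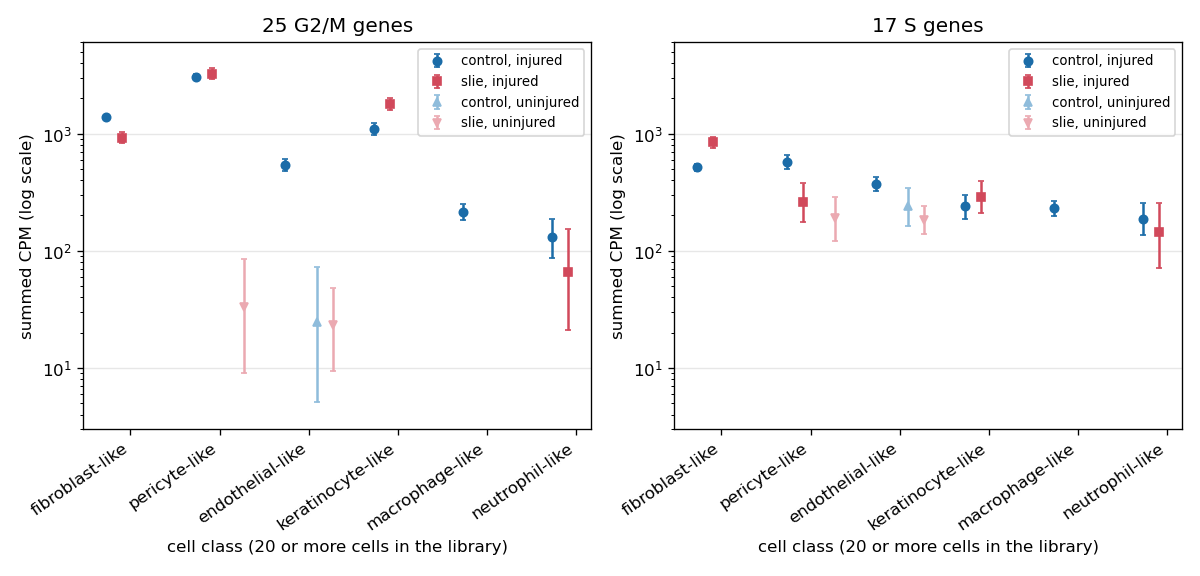
Summed CPM (log axis) of the 25 G2/M genes (left) and 17 S genes (right) by cell class and library, for classes with at least 20 cells in the library, with bars for exact Poisson 95% intervals. Pericyte-like cells of the injured limbs are highest for G2/M, at 3056 and 3249 CPM, and the uninjured classes shown on the left lie at or under 33.2 CPM.

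Endothelial-like cells of control and pericyte-like cells of slie mice had at least 20 cells in both limbs of a genotype, and both had at most 4 G2/M UMIs in the uninjured limb. Pericyte-like cells of slie mice had 360 G2/M UMIs in the injured and 4 in the uninjured limb, from 21 and 20 cells, a log2 ratio of 6.61 (5.25 to 8.50). With 4 G2/M UMIs in the uninjured limb, a G2/M gene could reach 20 UMIs only through the injured limb. That all 8 measured G2/M genes were higher, beside 25.5% of 1985 genes, was therefore fixed in advance. Mki67, Cenpf, Cenpe, Top2a and Ccnb2 had no UMI in the uninjured limb. Of the 21 injured cells 20 were in cluster 6, and of the 20 uninjured cells 13 were in cluster 13, whose leading genes are of smooth muscle. Endothelial-like cells of control mice had 294 and 3 G2/M UMIs, from 26 cells each, a log2 ratio of 4.45 (2.89 to 6.73). All 5 measured G2/M genes were higher, beside 32.3% of 4929 genes. They too could reach 20 UMIs only through the injured limb, so this count adds nothing to the summed ratio. All 26 injured cells were in cluster 4, and 16 of the 26 uninjured ones. Their median depths were 17632.5 and 1421 UMIs. The S genes differed by less: log2 ratios were 0.46 (-0.38 to 1.31) in the pericyte-like and 0.64 (0.07 to 1.25) in the endothelial-like cells.

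The share of cells with G2/M genes was also compared between classes. Cells with fewer than 500 UMIs were left out, each other cell was thinned to 500 UMIs, and cells with UMIs of at least 2 different G2/M genes were counted. The smallest deposited barcode had 500 UMIs in control injured and 259 in slie injured. Of the injured libraries, only slie injured therefore lost cells. In control injured these were 49 of 299 fibroblast-like cells (16.4%, 12.4 to 21.1) and 11 of 57 pericyte-like cells (19.3%, 10.1 to 31.9). They were 3 of 26 endothelial-like, 2 of 39 keratinocyte-like and 2 of 119 macrophage-like cells. No neutrophil-like cell of 147 was among them, which allows a share of up to 2.04% (3 cells of 147). In slie injured 74 of the 107 fibroblast-like and 19 of the 21 pericyte-like cells had at least 500 UMIs. The shares there were 16 of 74 fibroblast-like cells (21.6%, 12.9 to 32.7) and 5 of 19 pericyte-like cells (26.3%, 9.15 to 51.2), with 0 of 42 neutrophil-like cells. Before thinning, with all cells counted, at least 2 G2/M genes were found in 28.1% and 24.3% of the fibroblast-like cells. For neutrophil-like cells this was 1.36% and 0%. Median depths were 1377 and 707 UMIs in fibroblast-like against 1215 and 1664 in neutrophil-like cells. In the uninjured limbs the thinned counts were 0 of 53 and 2 of 184 cells.

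S genes were counted from 1 gene per cell, not 2, so these shares cannot be set beside the G2/M shares above. After thinning, 58 of 299 fibroblast-like cells of control injured (19.4%, 15.1 to 24.3) and 19 of 147 neutrophil-like cells (12.9%, 7.97 to 19.5) had an S gene. Before thinning, 35 of these neutrophil-like cells had an S UMI and 25 a G2/M UMI, against 136 and 131 of the 299 fibroblast-like cells. Slbp was found in 22 neutrophil-like cells. Cells with 2 or more G2/M genes had S genes more often: 18 of 49 such fibroblast-like cells (36.7%, 23.4 to 51.7) and 40 of the other 250 (16.0%, 11.7 to 21.1). In slie injured these were 6 of 16 and 12 of 58 cells, with overlapping intervals.

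The genotypes were compared within the injured limb. Over all cells the summed G2/M CPM of slie over control had a log2 ratio of 0.14 (0.04 to 0.24), and the S ratio was 0.68 (0.54 to 0.82). Of the G2/M genes 3 of 25 were higher (Nusap1, Bub1b and Kif11) and 3 lower (Cdc20, Kif23 and Plk1), against 12.3% of 11313 genes as higher and 16.5% as lower. Of the S genes 8 of 17 were higher and 0 lower. Without the 3 deepest cells of each library 12 G2/M genes were higher and 1 lower, and without the cell with the most G2/M UMIs 2 and 5. The share of all genes was not counted without these cells, so such counts have no background beside them, here and in the paragraphs below. The median was 0.08 over the G2/M genes, 0.49 over the S genes and -0.01 over all measured genes.

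In fibroblast-like cells the lists parted. The S genes summed to 514 CPM in control and 845 CPM in slie, a log2 ratio of 0.72 (0.52 to 0.91), and the G2/M genes to 1386 and 926 CPM, a log2 ratio of -0.58 (-0.75 to -0.42). Of the S genes 11 of 16 were higher and 0 lower, against 10% and 23.7% of 7883 genes. Pcna had 25.9 CPM in control and 70.2 in slie, Rrm2 64.6 and 103, and Mcm6 23.7 and 59.4, while Tyms had 81.1 and 70.2. Of the G2/M genes 11 of 23 were lower and 0 higher. The largest differences were in Cenpf (71.1 and 13.5 CPM), Cenpe (62.5 and 16.2), Nusap1 (51.0 and 13.5) and Kif23 (21.5 and 5.40), while Birc5 had 109 and 116 CPM, Cdk1 120 and 99.9, and Top2a 151 and 108.

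Both differences rested on few cells. A single slie fibroblast-like cell of 74520 UMIs held 187 of the 313 S UMIs of its class, with all 17 S genes found in it, and 79 of the 343 G2/M UMIs. Without the cell with the most S UMIs in each library the S ratio in fibroblast-like cells was -0.12 (-0.40 to 0.16), with 4 of 13 S genes higher and 2 lower. Leaving out the 3 deepest cells of each library instead gave 0.49 for S (0.17 to 0.79), and it gave 0.27 (0.08 to 0.47) for G2/M, with 8 of 23 G2/M genes higher and 5 lower. With each cell weighted equally the ratios were 0.05 for G2/M and 0.17 for S, and after thinning -0.09 (-0.56 to 0.36) and 0.70 (0.05 to 1.32). The thinned share of fibroblast-like cells with G2/M genes was 21.6% in slie and 16.4% in control, opposite to the order of the summed CPM, so that no order between the genotypes was read. Among fibroblast-like cells with at least 0.5% mitochondrial UMIs G2/M was 1291 CPM in control and 683 in slie, and among those under 0.5% it was 1943 and 1720 CPM.

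**Figure D4:**
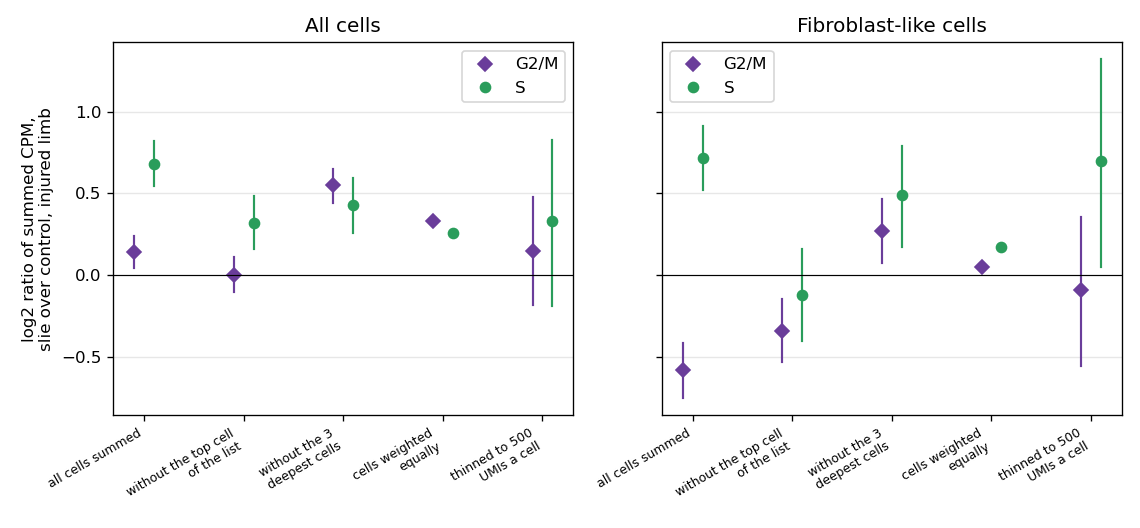
Log2 ratio of summed CPM, slie over control in the injured limb, for G2/M and S genes in all cells (left) and fibroblast-like cells (right), with all cells summed, without single cells, with cells weighted equally and after thinning; lines are 95% counting intervals and equal weighting has none. In fibroblast-like cells S goes from 0.72 to -0.12 without 1 cell per library, and G2/M from -0.58 to 0.27 without the 3 deepest.

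Over all cells, a further cell carried many S UMIs. It lay in the erythroid-like cluster of slie injured, had 19830 UMIs, and held all 130 S UMIs of the 7 slie cells of that cluster and 84 of their 93 G2/M UMIs. The leading genes of that cluster also included T cell genes. The cell in the fibroblast-like class and this cell together held 317 of the 588 S UMIs (53.9%) of the slie injured library. Without the erythroid-like cluster the S ratio over all cells was 0.35 (0.19 to 0.50), and without the cell with the most S UMIs in each library 0.32 (0.16 to 0.49), with 4 of 17 S genes higher and 3 lower.

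In pericyte-like cells the G2/M genes had close sums in both genotypes and the S genes did not. G2/M had a ratio of 0.09 (-0.09 to 0.26); Mki67 and Tacc3 were higher and 8 of 22 genes lower, against 12.5% and 24.5% of 3992 genes. Cdk1 had 22 UMIs in control and 0 in slie, and Cdc20 87.9 and 36.1 CPM. The S ratio was -1.14 (-1.75 to -0.57), with 29 UMIs in slie, and all 4 measured S genes (Mcm4, Tyms, Rrm2 and Slbp) were lower. These classes held 57 and 21 cells, and 1 slie cell held 171 of the 360 G2/M UMIs. Without the cell with the most G2/M UMIs in each library the G2/M ratio was -0.65 (-0.89 to -0.43). Without the 3 deepest cells G2/M was 0.75 (0.53 to 0.96) and S -0.30 (-1.10 to 0.40).

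Keratinocyte-like cells had more G2/M and no clear difference in S. G2/M had a ratio of 0.72 (0.48 to 0.96); 7 of 11 genes were higher and 1, Cdc20, lower (23 UMIs in control and 3 in slie), against 30.3% and 14.2% of 2855 genes. Nusap1 had 13 UMIs in control and 33 in slie, and Cenpf 16 and 35. A single slie cell held 203 of the 261 G2/M UMIs. Without the cell with the most G2/M UMIs in each library the ratio was -0.77 (-1.22 to -0.35); 1 of 4 measured genes was lower and 0 higher. Without the 3 deepest cells of each library it was 2.15 (1.88 to 2.42), with 8 of 9 higher. The shares of all genes given above do not apply to these reduced sets of cells. The S ratio was 0.28 (-0.31 to 0.85), from 71 UMIs in control and 42 in slie, and Tyms was the 1 S gene measured.

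The UMIs of both lists were concentrated in few cells. In control injured 10 of the 751 cells held 50% of the 3940 G2/M UMIs and 22 held 50% of the 1460 S UMIs. Cells with at least 20 UMIs of both lists together were sorted by which list gave more UMIs. In control injured 35 cells were led by G2/M, with 3094 G2/M and 478 S UMIs in all, and 10 by S, with 109 and 342. In slie injured 10 were led by G2/M (696 and 49) and 3 by S (173 and 334), and slie uninjured had 1 cell. G2/M-led cells of control injured thus held 32.7% of all S UMIs of the library, more than the 23.4% in S-led cells, and the sorting itself fixes which list is larger in a cell. The sorting splits a range: 2 of the G2/M-led and 1 of the S-led cells of control injured had an S share between 40% and 60%, as did the cell of slie uninjured and none of slie injured. G2/M-led cells of control injured were 20 fibroblast-like, 8 pericyte-like, 3 endothelial-like, 3 keratinocyte-like and 1 macrophage-like, and S-led cells were 4 fibroblast-like, 3 pericyte-like, 2 macrophage-like and 1 endothelial-like.

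**Figure D5:**
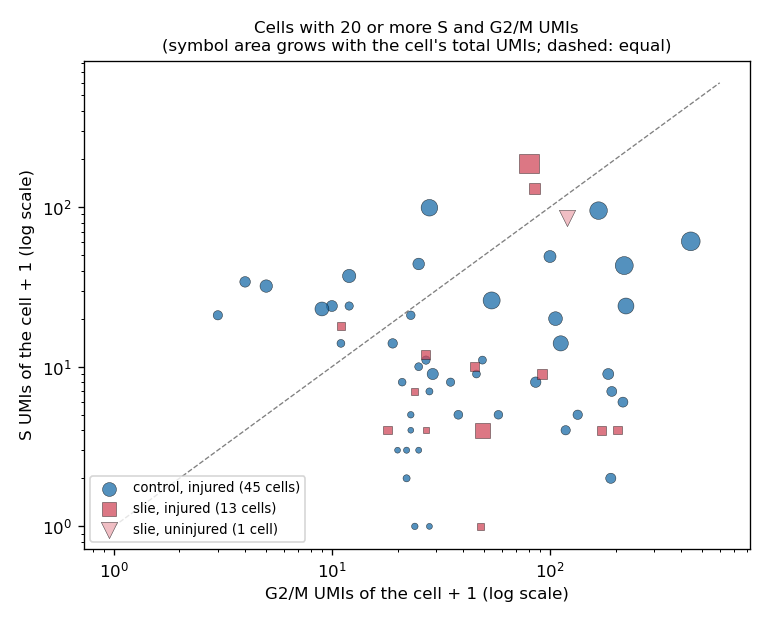
Each symbol is 1 cell with at least 20 UMIs of both lists together, by its G2/M UMIs and S UMIs plus 1 on log axes, with symbol area growing with total UMIs and the dashed line at equality. Of the control injured cells 10 lie above the line, and the slie injured cell with 187 S UMIs is the highest point.

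Genes outside the 45 were compared between the sorted cells, which were chosen without them. Of 31 other S genes, such as Dut, Usp1 and Nasp, 30 had at least 5 UMIs in the sorted control injured cells, and 26 had a higher CPM in S-led cells. In slie injured this was so for 25 of 25. The list summed to 2337 CPM (2147 to 2538) in S-led and 1510 CPM (1418 to 1607) in G2/M-led cells of control injured, and to 384 CPM in the remaining cells. Of 44 other G2/M genes, 43 of 44 were higher in G2/M-led cells in control and 25 of 37 in slie injured. Their sums were 4013 CPM in G2/M-led and 1112 CPM in S-led cells of control, and 4014 and 3501 CPM of slie, where S-led means 3 cells. The share of all genes higher in either kind of sorted cell was not counted, so the gene counts have no background beside them. The sorted cells also differed in class and depth, with medians of 21759 UMIs in S-led and 10928 in G2/M-led cells of control injured. CDK inhibitor genes (7 genes, among them Cdkn1a, Cdkn1b and Cdkn1c, which hold cells out of the cycle) summed to 187 CPM (137 to 251) in S-led, 392 CPM (346 to 444) in G2/M-led and 404 CPM in the remaining cells of control injured. In slie injured they were 144 CPM (80.8 to 238), 181 CPM (115 to 271) and 498 CPM (449 to 550). No sorted cell was neutrophil-like. Neutrophil-like cells held 344 of the 1267 CDK inhibitor UMIs of the remaining cells in control injured and 192 of 388 in slie injured. The part of cell class in this contrast was not tested.

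Between limbs the other G2/M genes summed to a 3.69-fold higher level in the injured limb of control mice and 3.46-fold in slie mice, and the other S genes to 1.91-fold and 1.60-fold. In control mice 22 of 42 other G2/M genes were higher and 1 lower, and 11 of 28 other S genes were higher and 2 lower, beside 27.5% and 25% of all genes measured. In slie mice these counts were 21 of 23 and 1, and 13 of 21 and 0, beside 20.6% and 23.7%. Lmnb1, which encodes lamin B1, was the gene of the other G2/M list with the most UMIs in neutrophil-like cells, with 222 of that list's 331 UMIs there in control injured, so that list has a higher background than the members. G1 and commitment genes (15, among them the cyclin D genes Ccnd2 and Ccnd3 and their kinase Cdk4) had log2 ratios of -0.03 (-0.28 to 0.23) in control and 0.30 (0.14 to 0.47) in slie mice. CDK inhibitor genes had -0.21 (-0.49 to 0.09) and -0.41 (-0.60 to -0.23). Schwann-like cells (cluster 14) held 39 of the 109 CDK inhibitor UMIs of control uninjured and 137 of the 616 of slie uninjured. Neutrophil-like cells held 344 of the 1569 of control injured and 192 of the 426 of slie injured. The part of this cell makeup in the ratios was not tested. Cdkn1c had 36.2 and 28.7 CPM in the injured and 107 and 162 CPM in the uninjured libraries, control before slie, while Cdkn1a had 150, 232, 61.8 and 140 CPM in control injured, slie injured, control uninjured and slie uninjured.

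The 3 genes expressed outside the cycle too were abundant in every library. H2afz, a histone variant, had 826, 916, 334 and 406 CPM in control injured, slie injured, control uninjured and slie uninjured, and Hmgb2, a chromatin protein, 275, 344, 78.2 and 127 CPM. Stmn1, a microtubule destabiliser, had 116, 216, 140 and 153 CPM, so that its control injured value lay below both uninjured ones. Cluster 14, called Schwann-like from markers of that type, held 20 of the 34 Stmn1 UMIs of control uninjured and 96 of the 168 of slie uninjured. That cluster had 13 and 16 cells there, but 0 in control injured and 1 in slie injured. Together the 3 genes had log2 ratios of injured over uninjured of 1.14 in control and 1.11 in slie mice. In the deep cells of control injured Hmgb2 had 736 CPM in G2/M-led, 225 in S-led and 183 in the remaining cells, and Stmn1 405, 162 and 52.0 CPM. In slie injured S-led cells were not lower than G2/M-led cells: Hmgb2 had 1068 CPM in S-led, 723 in G2/M-led and 186 in the remaining cells, and Stmn1 731, 684 and 70.5 CPM.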

How the data were processed

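Single cells of 4 libraries were analysed from UMI counts per gene and barcode, deposited by the authors and which per the file headers came from Cell Ranger 5.0.1, on mm10 per the submitters' processing notes. The barcode calling settings are not given. A barcode was kept as a cell from 200 detected genes upward, unless over 20% of its UMIs were mitochondrial (1241 cells). Cells were scaled to 10000 counts and clustered on 2000 variable genes without cell cycle genes (30 components, 15 neighbours, Leiden resolution 1) with scanpy 1.11.5 and leidenalg 0.10.2 on Python 3.11.15. Clusters were named from 3 or more detected markers, by thresholds set after the data were seen. Scrublet called 0, 2, 14 and 4 doublets in control injured, slie injured, control uninjured and slie uninjured, and these were kept. Raw UMIs were summed per library and class. Intervals are exact Poisson for CPM, Clopper-Pearson for shares and conditional binomial for ratios (scipy 1.17.1). Coverage was tested for the ratio intervals only, on simulated independent counts. That simulation leaves out the concentration of UMIs in few cells, so it does not show coverage for these data. The members and lists were chosen with earlier results of these data known. Full values are given for up to 3 genes of each role group with the most UMIs and for genes that go against their list. Promoter windows are from RefSeq (GRCm38.p6), with 39 of 45 genes matched.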

Additional observations from a re-analysis of the deposited data

Results flagged for a closer look

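Within the injured limb, slie over control, the G2/M sum had a log2 ratio of -0.58 in fibroblast-like cells and 0.72 in keratinocyte-like cells, with intervals on opposite sides of 0. The S sum had 0.72 in fibroblast-like and -1.14 in pericyte-like cells, also on opposite sides. Each group was 1 library, so the difference between classes was not tested. Without the cell with the most UMIs of the list in each library, G2/M in keratinocyte-like cells was -0.77 and S in fibroblast-like cells -0.12.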

How the results depend on the processing

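Values are log2 ratios, and causes were not tested. Injured over uninjured kept its direction in both genotypes under all 13 alternatives for G2/M and all 12 for S. In control mice G2/M (3.37) was 4.19 without called doublets, 4.58 thinned, 1.76 with the 3 broader genes and 1.58 as a median, and S (0.93) was 1.41 at 100 genes per cell, 0.44 thinned and 0.41 as a median. In slie mice G2/M (2.86) was 2.62 at 100 genes, 4.69 without doublets, 3.55 with cells weighted equally, 4.83 without the 3 deepest cells, 1.61 with the broader genes, 3.18 as a median and 4.39 without the top cell of the list. There S (1.35) was 1.87 without doublets, 1.13 equally weighted, 1.13 thinned and 1.59 without the 3 deepest cells. Slie over control in the injured limb was less stable. Over all cells G2/M (0.14) was 0.00 at 100 genes, 0.33 equally weighted, 0.55 without the 3 deepest and 0.00 without the top cell. S (0.68) was 0.54 at 100 genes, 0.26 equally weighted, 0.33 thinned, 0.43 without the 3 deepest, 0.49 as a median, 0.32 without the top cell and 0.35 without the erythroid-like cluster. In fibroblast-like cells G2/M (-0.58) was -0.76 at 500 genes, -0.93 at 10% mitochondrial UMIs, -1.13 without cells under 0.5%, -0.09 thinned, -0.28 with the broader genes and -0.34 without the top cell, and turned to 0.05 equally weighted and 0.27 without the 3 deepest. S there (0.72) was 0.17 equally weighted and 0.49 without the 3 deepest, and turned to -0.12 without the top cell. G2/M in keratinocyte-like cells (0.72) turned to -0.77 without the top cell, and was 2.15 without the 3 deepest and 1.37 equally weighted. The share of fibroblast-like cells with G2/M genes in control injured (16.4%) was 10.6% at 10% mitochondrial UMIs, 9.24% without cells under 0.5%, 28.4% with 1 gene, 24.3% thinned to 1000 UMIs and 28.1% unthinned. In slie injured (21.6%) it was 10.0% at 500 genes, 12.7% at 10% mitochondrial UMIs and 36.5% with 1 gene. Leaving out the top cell or the erythroid-like cluster, and the alternatives in keratinocyte-like, pericyte-like and endothelial-like cells, were added after seeing the data. No paired analysis was possible because each group was 1 library. Depth limits the control uninjured library most, with 60 cells and 23 G2/M UMIs.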
